A study of Rattus norvegicus with 23 samples.

Results

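The 9 genes described here code for the hypoxia-inducible factor (HIF) subunits that respond to oxygen and for the proteins that sense oxygen and control them, and they were followed in the heart and kidney of rats after kidney and vessel surgery. They were given as a list, chosen with earlier results of these data known, and matched by symbol and identifier to the deposited tables, in which 9 of 32552 genes were found. The libraries came from Sprague-Dawley rats aged 13 weeks, and every sample was taken 4 weeks after surgery. Sham rats had sham surgery. NX rats had a 5/6 partial nephrectomy, a common way to produce chronic kidney disease. AVF+NX rats had the same nephrectomy and an arteriovenous fistula, in which the jugular vein was joined end to side to the carotid artery. Each group had 4 heart and 4 kidney libraries, except for Sham hearts with 3, which gave 23 poly(A)-selected libraries. No group had a fistula without nephrectomy, so the fistula was compared only on top of kidney loss.

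HIF is a transcription factor made of an oxygen-regulated alpha subunit and the stable partner Arnt. When oxygen is present, prolyl hydroxylases mark the alpha subunit, the Vhl protein recognises the mark, and a ubiquitin ligase sends the subunit to the proteasome. When oxygen falls, the alpha subunit persists and switches on genes of glycolysis, blood vessel growth and red cell production. This control acts on protein, so transcript levels of the alpha subunits do not measure HIF activity. In the adult kidney, Epas1 in interstitial cells drives production of the hormone erythropoietin.

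The alpha subunits are coded by Hif1a (ENSRNOG00000008292, 6:96810907-96856052, plus strand), Epas1 (HIF-2 alpha, ENSRNOG00000021318, 6:10306405-10387265, plus strand) and Hif3a (ENSRNOG00000017198, 1:78976318-78997869, minus strand), whose products can dampen the other two. The prolyl hydroxylases are Egln1 (PHD2, ENSRNOG00000019773, 19:57662278-57699113, minus strand), Egln2 (PHD1, ENSRNOG00000020947, 1:83969457-83977236, minus strand) and Egln3 (PHD3, ENSRNOG00000005053, 6:75050329-75075795, minus strand). Vhl (ENSRNOG00000010258, 4:145580799-145587845, plus strand) is the substrate-binding part of the ligase. Hif1an (FIH, ENSRNOG00000014234, 1:264309214-264319267, plus strand) is an asparaginyl hydroxylase that blocks coactivator binding. Ankrd37 (ENSRNOG00000031335, 16:49462889-49465888, plus strand) codes for an ankyrin repeat protein and is known as a direct HIF-1 target. Coordinates are those of the deposited count tables, whose genome build is not given in the sources used here. Egln2 overlaps Cyp2t1 on the other strand, and the strand setting of the counting is not given, so its reads could include some of Cyp2t1. The mean of Cyp2t1 over all 23 libraries of both organs was 9.48 CPM, and its level in each group was not examined. The other members overlap no annotated gene.

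Promoter sequences of 7 members are shown: the 6 genes called in at least 1 comparison after surgery, and Ankrd37, whose window held the most HIF-type words. All 9 members had an entry, with 10 windows in all since Hif3a had a pair of start sites. Each window runs 5′ to 3′ on the gene's strand from 250 bases before the RefSeq start to 50 bases from it, in build GRCr8, a build that may not be that of the count tables. Capitals mark ACGTG or GCGTG on either strand, the core words of the hypoxia response element, so a match on the other strand reads CACGT or CACGC, and both strands of the palindrome CACGTG count as ACGTG.
Egln3 (chr6:77410966-77411265, minus strand): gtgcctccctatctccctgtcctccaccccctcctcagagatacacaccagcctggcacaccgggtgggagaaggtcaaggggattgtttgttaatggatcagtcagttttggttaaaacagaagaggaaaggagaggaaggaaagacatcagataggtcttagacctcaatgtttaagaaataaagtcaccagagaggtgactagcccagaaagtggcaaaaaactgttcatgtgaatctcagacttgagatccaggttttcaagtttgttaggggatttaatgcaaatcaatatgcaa
Egln1 (chr19:69804632-69804931, minus strand): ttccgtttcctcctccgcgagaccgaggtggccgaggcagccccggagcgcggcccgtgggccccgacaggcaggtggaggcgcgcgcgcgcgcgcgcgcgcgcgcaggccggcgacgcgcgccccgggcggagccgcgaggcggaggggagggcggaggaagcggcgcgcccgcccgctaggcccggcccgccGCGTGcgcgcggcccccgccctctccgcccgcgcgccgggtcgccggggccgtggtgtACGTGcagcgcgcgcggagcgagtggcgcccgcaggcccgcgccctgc
Egln2 (chr1:91586936-91587235, minus strand): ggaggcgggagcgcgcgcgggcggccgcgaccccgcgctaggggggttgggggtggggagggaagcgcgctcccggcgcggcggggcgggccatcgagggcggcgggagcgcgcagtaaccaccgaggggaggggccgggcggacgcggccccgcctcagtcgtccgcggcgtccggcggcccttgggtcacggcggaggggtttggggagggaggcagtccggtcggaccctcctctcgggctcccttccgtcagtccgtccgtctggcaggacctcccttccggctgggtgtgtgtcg
Hif1an (chr1:253368174-253368473, plus strand): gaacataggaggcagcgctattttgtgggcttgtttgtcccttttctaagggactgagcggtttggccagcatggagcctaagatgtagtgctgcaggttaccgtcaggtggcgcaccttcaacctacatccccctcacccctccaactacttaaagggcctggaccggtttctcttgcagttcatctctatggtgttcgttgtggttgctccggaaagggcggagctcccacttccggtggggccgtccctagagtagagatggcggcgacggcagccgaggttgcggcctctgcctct
Epas1 (chr6:13624680-13624979, minus strand): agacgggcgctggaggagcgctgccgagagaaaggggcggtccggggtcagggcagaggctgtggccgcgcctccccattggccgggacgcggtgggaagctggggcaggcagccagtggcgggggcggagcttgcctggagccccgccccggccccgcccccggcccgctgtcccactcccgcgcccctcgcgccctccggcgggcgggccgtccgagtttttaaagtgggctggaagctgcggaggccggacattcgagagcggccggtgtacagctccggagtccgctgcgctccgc
Hif3a, start site 1 (chr1:86877789-86878088, minus strand): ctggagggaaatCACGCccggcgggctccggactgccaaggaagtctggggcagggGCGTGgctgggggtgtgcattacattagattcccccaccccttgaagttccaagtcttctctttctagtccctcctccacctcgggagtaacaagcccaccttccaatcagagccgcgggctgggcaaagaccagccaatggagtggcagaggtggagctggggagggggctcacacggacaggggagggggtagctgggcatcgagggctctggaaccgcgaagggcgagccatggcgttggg
Ankrd37 (chr16:53001257-53001556, plus strand): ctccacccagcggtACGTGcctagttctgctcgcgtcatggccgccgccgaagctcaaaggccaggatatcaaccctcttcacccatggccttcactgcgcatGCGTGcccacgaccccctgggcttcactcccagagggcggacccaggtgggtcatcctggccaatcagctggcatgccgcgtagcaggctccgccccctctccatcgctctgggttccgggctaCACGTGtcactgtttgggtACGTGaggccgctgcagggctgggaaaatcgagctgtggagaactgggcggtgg
Either word stood in 4 of the 10 member windows, against 41.6% of 33469 promoter windows of the same length. The Ankrd37 window held 4 ACGTG matches and 1 GCGTG match, and 0.63% of all windows held 4 or more ACGTG matches. Its palindrome lay at positions -23 to -18 from the start, and 6.4% of all windows held a CACGTG. The Egln1 window held 1 match to each word and the Hif3a window 2 matches to GCGTG, while the Hif1a window, which is not shown, held 3 matches to ACGTG. Neither word was found in the windows of Egln3, Egln2, Hif1an, Epas1, Vhl or the second Hif3a start site. The windows also differed in composition, with 84.7% G or C in Egln1, 78.3% in Egln2 and 44.7% in Egln3, against a median of 51.7% over all windows. A match is a description of the letters, and the lack of one concerns these windows only. The Epas1 window lies on the minus strand, while the deposited coordinates place the gene on the plus strand. Strands of the other members match, and the reason for the Epas1 difference was not examined.

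Counts per library ran from 9069354 to 48079431. Levels below are read counts per unit of library depth (CPM), scaled by TMM within an organ, and differences are log2 fold changes with their standard error (SE) from edgeR's quasi-likelihood F test, called at a Benjamini-Hochberg adjusted p below 0.05 over all genes tested. Marker genes matched the labelled organs: summed cardiomyocyte markers were at least 52587 CPM in every heart library and at most 22.981 CPM in every kidney library. Summed proximal tubule markers were at least 9721 CPM in kidney, and 319 to 696 CPM in heart. Only 2 of these 6 markers passed the count filter in heart. Their median log2 difference between Sham heart and Sham kidney was -11.62, so the heart sum does not stand for the set.

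Heart libraries stood apart in a way that touches every heart result. The mean centred log2 CPM over 63 genes named only by an RNA family number, called the small RNA index here, lay between 0.79 and 0.84 in Sham hearts and between -0.89 and -0.28 in AVF+NX hearts. NX hearts split, with 1.004 and 0.675 in libraries 1 and 4 and -1.015 and -0.623 in libraries 2 and 3. Depth moved in part with it: NX libraries 2 and 3 had 22679092 and 18034380 counts against 9605973 and 10511439 in libraries 1 and 4, and AVF+NX libraries 1 to 3 had 27988586 to 48079431. AVF+NX library 4 had 11889483 counts, close to the Sham range of 9894716 to 11866042, and an index of -0.827. Whether the index reflects RNA handling or tissue was not tested. In the kidney the index was between -0.25 and 0.41 over 90 such genes.

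**Figure D1:**
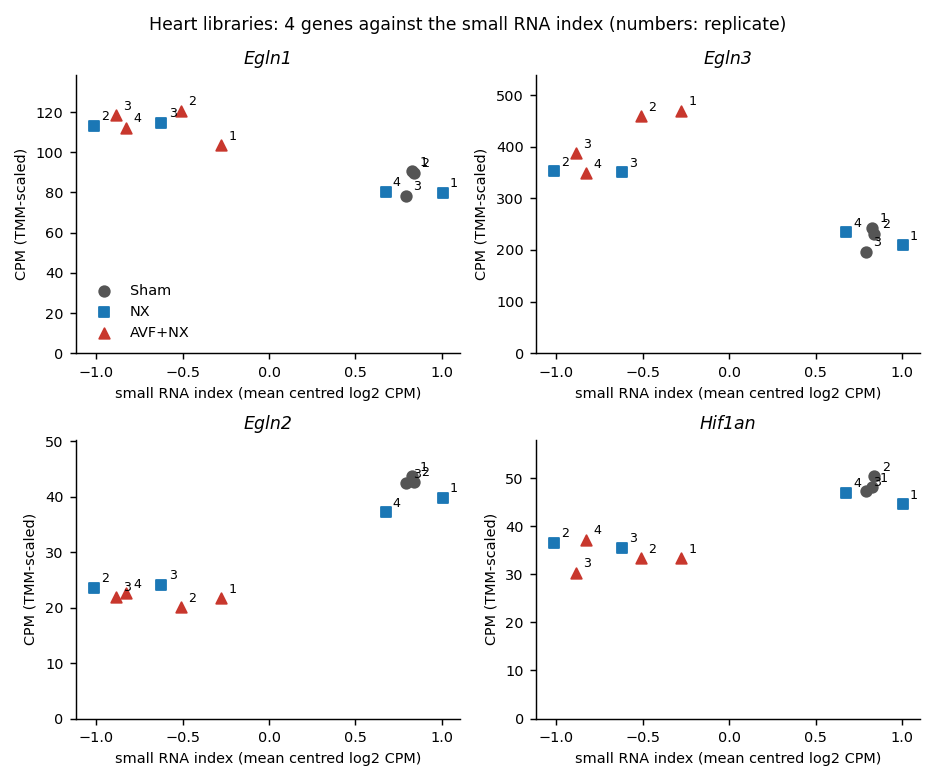
Levels of Egln1, Egln2, Egln3 and Hif1an (CPM) against the small RNA index (mean centred log2 CPM) in the 11 heart libraries, coloured by group and numbered by replicate. NX libraries 2 and 3, at -1.015 and -0.623, lie near the AVF+NX libraries, and NX libraries 1 and 4 lie near the Sham libraries.

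The first comparison set the organs side by side without kidney surgery. Heart and kidney held the same sensing genes in very different proportions. Egln3, a prolyl hydroxylase that is itself a HIF target, was 18.2-fold higher in Sham heart than in Sham kidney (log2 4.18, SE 0.25, adjusted p = 1.03e-12). Egln1, regarded as the main hydroxylase acting on HIF-1 alpha, was 3.93-fold higher in heart (log2 1.98, SE 0.13), and Hif1an was 2.74-fold higher (log2 1.45, SE 0.10). Epas1 was 2.18-fold higher in heart (log2 1.13, SE 0.11) and Egln2 1.28-fold higher (log2 0.36, SE 0.12, adjusted p = 0.0116). Kidney held more of the other 4 genes. Hif3a was 4.34-fold lower in heart (log2 -2.12, SE 0.52), Ankrd37 2.6-fold lower (log2 -1.38, SE 0.29), Vhl 2.35-fold lower (log2 -1.24, SE 0.11) and Hif1a 1.49-fold lower (log2 -0.57, SE 0.11). The size for Hif3a is loose, since Sham hearts held only 2 to 10 counts of it. Leaving out 1 Sham library moved its log2 difference between -3.223 and -1.714. All 9 members were called, beside 71.2% of the 15222 genes tested in both organs, with 5 higher and 4 lower in heart beside 33.2% and 37.9% of all genes, so a difference between the organs was common to most genes. TMM assumes that most genes do not differ, which this contrast strains. The direction for Egln2 depends on this scaling over both organs. In CPM scaled within each organ, Egln2 had a mean of 42.9 in Sham heart and 53.6 in Sham kidney.

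Levels per kilobase of the deposited gene length, scaled over all 23 libraries, allow the members to be ordered. In Sham heart Epas1 had 185 ± 26.9 CPM per kb (SD, n = 3) and Egln1 163 ± 13.7, and their ranges overlapped. Egln3 followed with 101 ± 11.3 CPM per kb, Hif1an with 46.0 ± 1.62, Egln2 with 27.4 ± 0.584 and Hif1a with 18.1 ± 1.75, each clear of its neighbours. Vhl had 7.07 ± 0.323 CPM per kb, Ankrd37 2.41 ± 0.526 and Hif3a 0.298 ± 0.293. In Sham kidney Epas1 again led with 84.9 ± 5.65 CPM per kb (SD, n = 4), followed by Egln1 with 41.5 ± 2.46, Hif1a with 27.0 ± 1.01 and Egln2 with 21.3 ± 1.55. Hif1an and Vhl, with 16.8 ± 0.965 and 16.6 ± 0.739 CPM per kb, could not be ordered, nor could Ankrd37 and Egln3, with 6.31 ± 0.768 and 5.54 ± 0.981. Hif3a was lowest with 1.25 ± 0.565 CPM per kb. Egln3 thus ranked 3 of 9 in Sham heart and, with Ankrd37, 7 or 8 of 9 in Sham kidney. The deposited Egln1 model is only 669 bases long, which bears on its place in both orders.

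**Figure D2:**
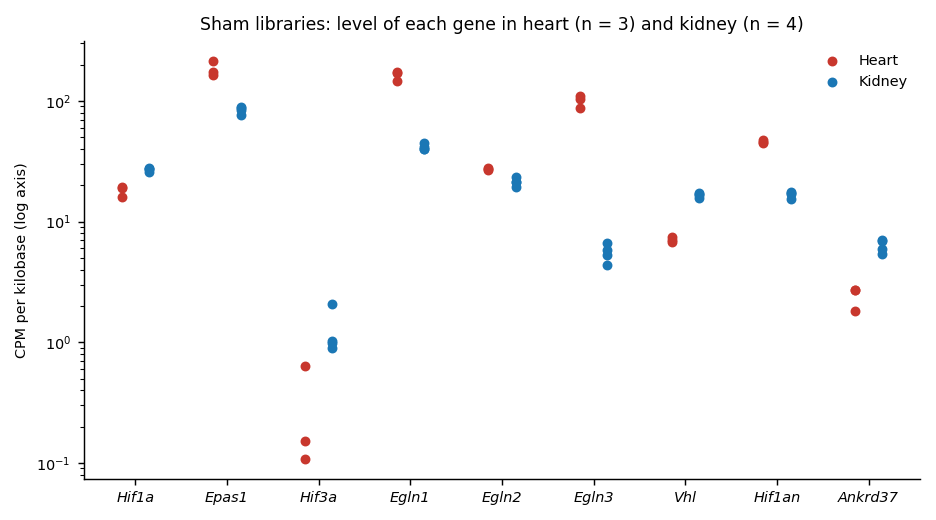
Levels of the 9 genes in CPM per kilobase (log axis) in the 3 Sham heart and 4 Sham kidney libraries, one point per library. Egln3 lies 18.2-fold apart between the organs, while Egln2 lies 1.28-fold apart.

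After AVF+NX, the heart held more Egln3 and Egln1 and less Egln2 and Hif1an than the Sham heart, so the 3 prolyl hydroxylases moved in opposite directions while Hif1a, Epas1 and Vhl were not called. Egln3 was 1.86-fold and Egln1 1.32-fold higher, Egln2 was 1.99-fold lower, and the asparaginyl hydroxylase Hif1an was 1.45-fold lower. In this comparison 4 of the 8 members tested were called, beside 34.1% of all genes tested, and 2 were higher and 2 lower beside 15.4% and 18.6% of all genes. The median log2 fold change of the 8 members was -0.0081 and that of all genes 0.01.

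Egln3 had 243, 231 and 197 CPM in Sham hearts, 210, 353, 351 and 234 in NX hearts and 469, 459, 388 and 349 in AVF+NX hearts. Every AVF+NX heart lay above every Sham heart, and NX libraries 2 and 3 lay within the AVF+NX range. Against Sham, the AVF+NX level rose by 0.90 on the log2 scale (SE 0.18, adjusted p = 0.00461).

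Egln2 had 43.7, 42.6 and 42.4 CPM in Sham hearts, 39.8, 23.6, 24.1 and 37.1 in NX hearts and 21.7, 20.1, 22 and 22.5 in AVF+NX hearts. The 3 groups did not overlap, but NX hearts formed a high and a low pair. After AVF+NX it fell by 0.99 on the log2 scale (SE 0.16, adjusted p = 0.00219).

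Hif1an had 48.2, 50.4 and 47.3 CPM in Sham hearts, 44.6, 36.6, 35.6 and 46.9 in NX hearts and 33.3, 33.3, 30.4 and 37.2 in AVF+NX hearts. All AVF+NX hearts lay below all Sham hearts. Hif1an fell by 0.54 between AVF+NX and Sham (log2, SE 0.11, adjusted p = 0.00423). Egln1 had 90.4, 89.9 and 78.4 CPM in Sham hearts, 79.8, 113, 115 and 80.4 in NX hearts and 103, 121, 118 and 112 in AVF+NX hearts. Its AVF+NX and Sham libraries did not overlap, and it rose by 0.40 (log2, SE 0.14, adjusted p = 0.0366). This was the least firm of the 4 calls: it was lost when any of 6 of the 7 libraries compared was left out, at adjusted p up to 0.13, while the other 3 genes stayed called without each of the 7.

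**Figure D3:**
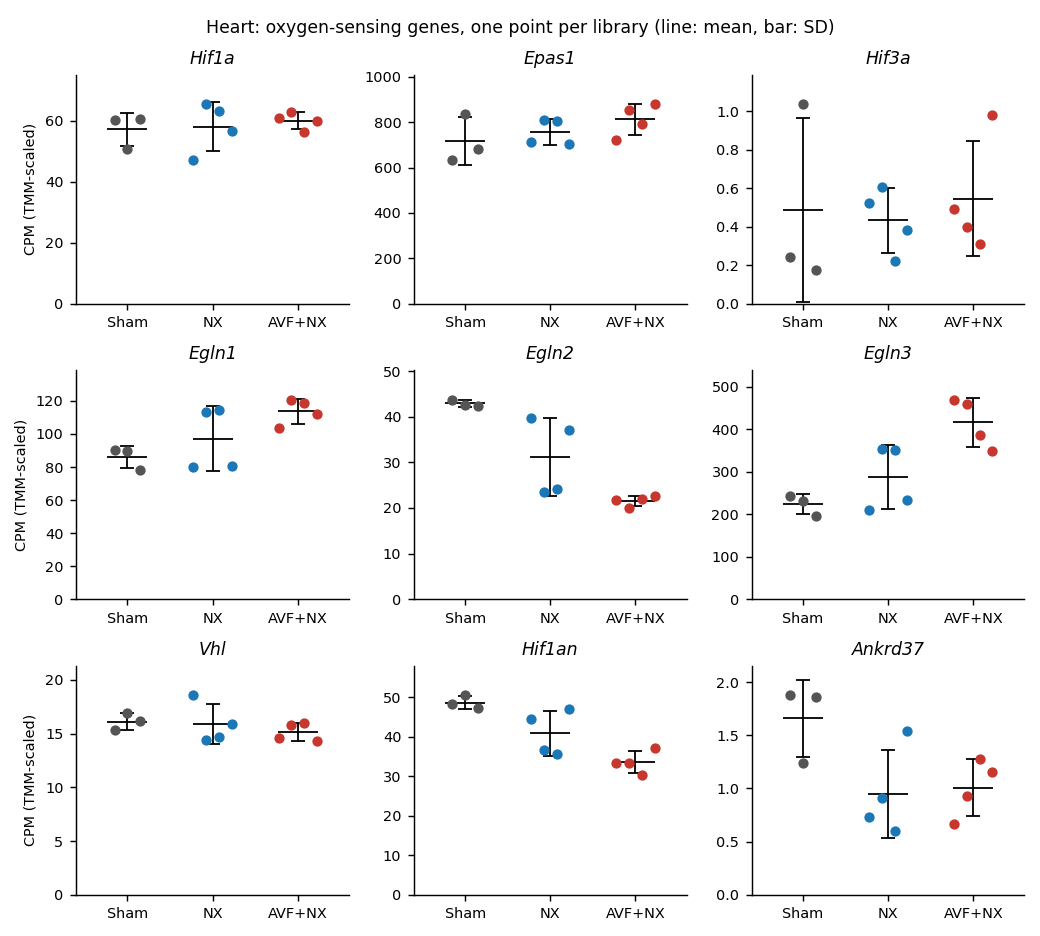
Levels of the 9 genes in the heart (CPM), one point per library, with the mean as a line and the SD as a bar. In Egln1, Egln2, Egln3 and Hif1an the 4 NX points split into pairs near the Sham and the AVF+NX points.

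With the index added as a covariate, none of the 4 genes was called between AVF+NX and Sham hearts. Egln3 then differed by 0.46 (adjusted p = 0.242), Egln2 by -0.471 (adjusted p = 0.101), Hif1an by -0.285 (adjusted p = 0.225) and Egln1 by -0.011 (adjusted p = 0.972). Over all genes the number called went from 4357 to 58. The index does not overlap between Sham and AVF+NX hearts, so its part and that of surgery cannot be told apart by these libraries. With log2 total count as covariate none of the 4 was called either: Egln3 differed by 0.499 (adjusted p = 0.212), Egln2 by -0.648 (adjusted p = 0.167), Hif1an by -0.296 (adjusted p = 0.246) and Egln1 by 0.165 (adjusted p = 0.604). AVF+NX library 4, with a depth near that of Sham but an index of -0.827, had 349 CPM of Egln3, 22.5 of Egln2, 37.2 of Hif1an and 112 of Egln1. This is 1 library, and the part of depth in these values was not tested.

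The transcription factors themselves differed little in heart. Hif1a had 60.1, 50.7 and 60.4 CPM in Sham hearts and 60.7, 62.9, 56.1 and 59.8 in AVF+NX hearts, a log2 difference of 0.07 (SE 0.11, adjusted p = 0.66). Epas1 had 634, 835 and 681 CPM in Sham hearts and 722, 855, 794 and 879 in AVF+NX hearts, a log2 difference of 0.18 (SE 0.11, adjusted p = 0.213). Vhl had 15.3, 16.9 and 16.1 CPM in Sham hearts and 14.6, 15.8, 15.9 and 14.3 in AVF+NX hearts (log2 -0.08, SE 0.11, adjusted p = 0.579). The groups overlapped for all 3 genes, which does not show that their levels were equal. Ankrd37 had 1.87, 1.24 and 1.86 CPM in Sham hearts and 0.67, 0.927, 1.27 and 1.16 in AVF+NX hearts, a log2 difference of -0.74 that was not called (SE 0.35, adjusted p = 0.116). It rested on 12 to 58 counts per library. Hif3a was below the count filter in heart, with 2 to 19 counts per library, and was not tested there.

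NX alone gave no call in the heart, for 0 of 8 members and 0% of all genes by edgeR's quasi-likelihood test. At an unadjusted p below 0.05 there were 3 members (Egln2, Hif1an and Ankrd37) and 2662 genes, and DESeq2 called 0 members and 336 genes. Egln2 differed by -0.48 (log2, SE 0.16, adjusted p = 0.176), and Egln3 by 0.36 (SE 0.18, adjusted p = 0.272). The mean Egln2 level in NX hearts, 31.2 ± 8.51 CPM (SD, n = 4), had an SD far above the 0.681 of Sham (n = 3) and the 1.06 of AVF+NX (n = 4), and its NX libraries formed the pairs described above.

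Between AVF+NX and NX hearts, the contrast for a fistula on top of nephrectomy, 0 of 8 members were called beside 0.336% of all genes. Egln3 differed by 0.54 (log2, SE 0.17, adjusted p = 0.119), Egln2 by -0.52 (SE 0.15, adjusted p = 0.106) and Hif1an by -0.29 (SE 0.10, adjusted p = 0.146). These 3 were the members at an unadjusted p below 0.05, among 2752 genes. DESeq2 called Egln2 (adjusted p = 0.0308) and Egln3 (adjusted p = 0.0456). Leaving out NX library 2 also brought 2 members past the threshold, and leaving out NX library 3 brought 1.

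In the kidney 2 of 9 members, both HIF alpha subunits, were called between AVF+NX and Sham, beside 25.1% of all genes. That count is near the share of all genes, and Hif3a was not tested in heart. Hif3a was lower after NX and after AVF+NX, and Epas1 was lower after AVF+NX, while the 3 prolyl hydroxylases, Vhl, Hif1an and Ankrd37 were not called. Hif3a had 2.67, 2.55, 2.36 and 5.48 CPM in Sham kidneys, 1.24, 0.86, 0.904 and 1.04 in NX kidneys and 1.71, 0.828, 1.41 and 1.02 in AVF+NX kidneys. Every operated kidney lay below every Sham kidney. These levels came from 24 to 61 counts in Sham libraries, 8 to 21 in NX and 8 to 19 in AVF+NX. Between NX and Sham it fell by 1.68 on the log2 scale (SE 0.34, adjusted p = 0.0377), the only call among 9 members, beside 1.31% of all genes called and 0.447% called lower. Leaving out any of 6 of the 8 libraries ended that call, at adjusted p between 0.0715 and 0.116; without Sham library 4, the highest, the log2 difference was -1.307. After AVF+NX it fell by 1.38 (SE 0.33, adjusted p = 0.00982), and the call held without each library, at -1.012 without Sham library 4 (adjusted p = 0.0345).

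Epas1 had 480, 523, 558 and 547 CPM in Sham kidneys, 464, 466, 450 and 396 in NX kidneys and 444, 465, 376 and 430 in AVF+NX kidneys. All operated kidneys lay below all Sham kidneys. Epas1 fell by 0.30 after AVF+NX (log2, SE 0.09, adjusted p = 0.0335) and differed by -0.25 after NX, which was not called (SE 0.09, adjusted p = 0.195). The AVF+NX call was lost without any of 6 of the 8 libraries, at adjusted p between 0.0555 and 0.09. With the small RNA index as covariate neither this call (log2 -0.257, adjusted p = 0.13) nor that of Hif3a after NX (log2 -1.579, adjusted p = 0.0789) was made. In all, 2 of 9 members were called between AVF+NX and Sham kidneys, both lower, beside 25.1% of all genes called and 9.18% called lower.

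Some cell type markers of the kidney also moved in the same libraries. Summed endothelial markers, a cell type in which Epas1 is abundant, were 600 to 616 CPM in Sham, 548 to 596 in NX and 518 to 604 in AVF+NX kidneys over 7 markers. Between AVF+NX and Sham, 1 of these 7 was called higher and 2 lower, so they did not move together. Proximal tubule markers fell from 16930 to 20448 CPM in Sham to 9721 to 14495 in AVF+NX, with 4 of 6 called lower. Macrophage markers were 281 to 350 CPM in Sham and 974 to 2166 in AVF+NX, with 7 of 7 called higher. Of 6 fibroblast markers, 4 were called higher and 0 lower. In bulk tissue fewer cells of a type and less RNA per cell cannot be told apart, and the part of these shifts in the Hif3a and Epas1 values was not tested.

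Hif1a had 141, 138, 129 and 137 CPM in Sham kidneys, 144, 121, 128 and 160 in NX kidneys and 148, 157, 149 and 154 in AVF+NX kidneys. All AVF+NX kidneys lay above all Sham kidneys, yet the log2 difference of 0.16 was not called (SE 0.09, adjusted p = 0.199). The authors' deposited table gives 0.15 for it with an adjusted p of 0.0279. For the other comparisons the calls in the authors' deposited tables fell on the same members as here. Vhl had 63.1, 56.7, 61.1 and 62.5 CPM in Sham kidneys and 44.3, 48.1, 61.1 and 54.8 in AVF+NX kidneys, a log2 difference of -0.22 that was not called (SE 0.09, adjusted p = 0.0962). It overlapped the Sham range through AVF+NX library 3.

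None of the hydroxylases was called in a kidney comparison. Group means were 33.6 to 37.2 CPM for Egln1, 53.6 to 55.8 for Egln2, 19.8 to 24.1 for Egln3 and 26.0 to 29.2 for Hif1an. Single libraries spread more, as with Egln3, which had 29.3, 14.0, 22.8 and 30.2 CPM in NX kidneys. The groups of these 4 genes overlapped in every kidney comparison, and the adjusted p values between operated and Sham kidneys were 0.349 or more. Ankrd37 had group means of 6.98 ± 0.831, 5.75 ± 1.38 and 5.45 ± 1.16 CPM (SD, n = 4) in Sham, NX and AVF+NX, without a call. For AVF+NX against NX kidneys, 0 of 9 members were called beside 6.07% of all genes, 0 had an unadjusted p below 0.05 where 3295 genes did, and DESeq2 called 0.

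**Figure D4:**
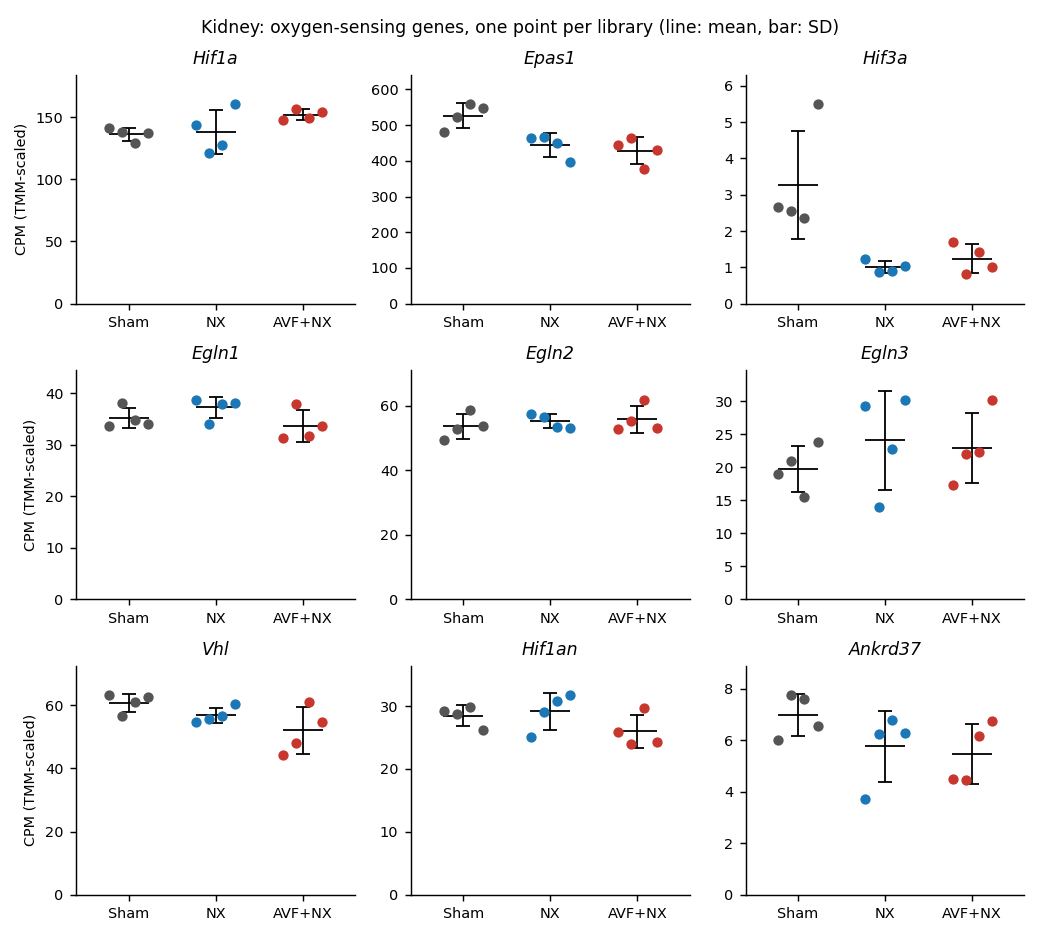
Levels of the 9 genes in the kidney (CPM), one point per library, with the mean as a line and the SD as a bar. All NX and AVF+NX points of Hif3a and Epas1 lie below all Sham points.

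Whether the organs answered the same operation differently was tested as the heart log2 fold change minus the kidney one. For AVF+NX against Sham, 3 of 9 members differed between the organs, beside 27.9% of all genes. Egln2 had the smallest adjusted p of the 3, with the heart effect below the kidney effect (log2 difference -0.96, SE 0.17, adjusted p = 0.000515). Epas1 differed by 0.57 (SE 0.15, adjusted p = 0.0088), with its kidney level called lower and its heart level not called. Egln1 differed by 0.56 (SE 0.18, adjusted p = 0.0245). Egln3 differed by 0.77 and was not called (SE 0.33, adjusted p = 0.0811), but DESeq2 called it (log2 0.812, adjusted p = 0.0388), as did the fit without Kidney AVF+NX library 4 (adjusted p = 0.0422). Hif1an differed by -0.32 (SE 0.14, adjusted p = 0.0903). Hif3a differed by 1.54 (SE 0.69, adjusted p = 0.0965), with heart counts too low for a heart test. For NX against Sham 0 of 9 members differed, beside 0.158% of all genes, and for AVF+NX against NX 0 of 9, beside 1.12%. At an unadjusted p below 0.05 these gave 3 and 2 members among 2523 and 2654 genes, and DESeq2 called 0 members in both. With the index as a covariate none of the 3 organ differences was called. In that fit the heart and kidney indices, built and centred separately over different genes, shared a single slope.

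**Figure D5:**
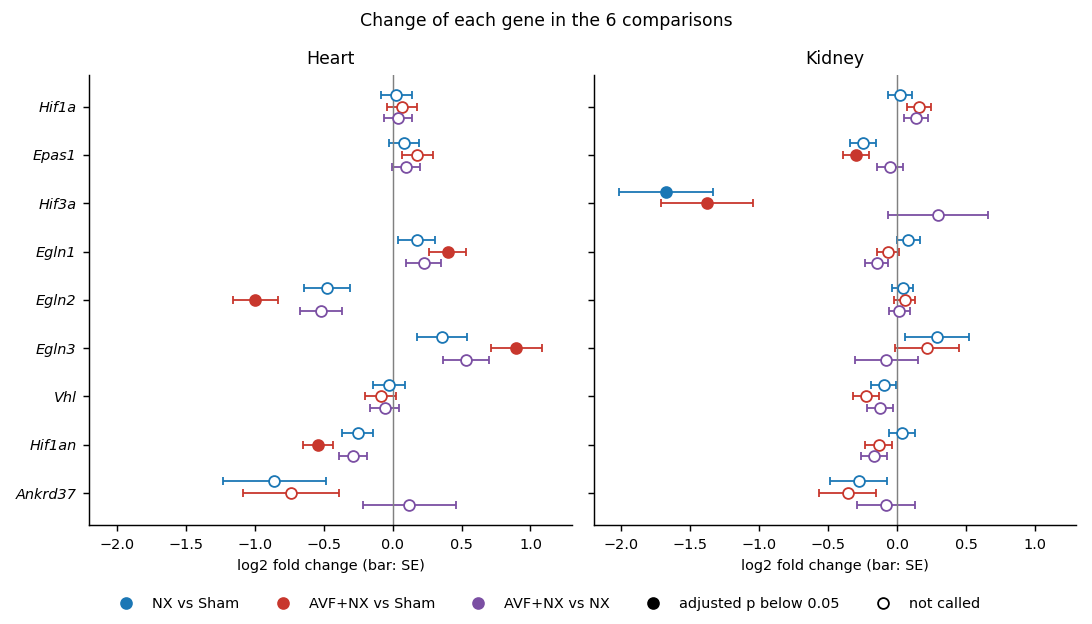
Log2 fold changes of the 9 genes in each organ and comparison, with SE as bars and filled points for an adjusted p below 0.05. Egln3 (0.90), Egln1 (0.40), Hif1an (-0.54) and Egln2 (-0.99) are filled for AVF+NX against Sham in heart. In kidney Epas1 is filled for AVF+NX against Sham and Hif3a for both comparisons with Sham; Hif3a was not tested in heart.

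The partners and targets of HIF were read from 4 fixed lists. Of 12 partners and VHL ligase parts tested in heart, 3 rose and 1 fell between AVF+NX and Sham, with a median log2 difference of 0.17 against 0.01 for all genes. That is 4 of 12 beside 34.1% of all genes called in this comparison, with 15.4% higher and 18.6% lower, so the count is near the background. The ubiquitin ligases Siah1 (0.53, SE 0.14) and Siah2 (0.47, SE 0.15), which act on the prolyl hydroxylases, and the scaffold Cul2 (0.33, SE 0.11) were higher, while Rbx1, the ring subunit, was lower (-0.43, SE 0.12). The partner Arnt had 30.1 ± 1.48 CPM in Sham (SD, n = 3) and 29.4 ± 1.02 in AVF+NX hearts (SD, n = 4) and was not called. With either the index or log2 total count as a covariate, none of the heart list genes named here was called between AVF+NX and Sham; Cul2, for instance, was then at 0.03 and 0.153. Leaving out 1 library ended the call of Cul2, Gapdh, Gpi and Nos3 in 6 of 7 fits each, of Angpt2 in 5, of Siah2 and Ldha in 4, of Rbx1 and Pgk1 in 3, of Kdm4b in 2 and of Siah1, Edn1, Rora and Tgfb3 in 1. Gapdh reversed with the index (0.066), and Pgk1 was not called without the count filter (adjusted p = 0.056).

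Among 17 glycolytic targets in heart 1 rose and 5 fell, with a median of -0.22. These 6 of 17 also stood near the 34.1% of all genes called. Lower were Pfkl (-0.63, SE 0.13), Aldoa (-0.43, SE 0.10), Pgk1 (-0.31, SE 0.09), Ldha (-0.37, SE 0.11) and Gapdh (-0.45, SE 0.16), enzymes of glycolysis and lactate formation, and Gpi was higher (0.29, SE 0.10). Among 18 targets of survival, matrix and feedback 8 rose and 2 fell, beside 15.4% and 18.6% of all genes, with a median of 0.24. The collagen-modifying enzymes P4ha1 (1.14, SE 0.17), Plod2 (0.88, SE 0.21) and Lox (1.29, SE 0.20) rose, as did the histone demethylase Kdm3a (0.54, SE 0.10) and the stress gene Ndrg1 (0.87, SE 0.17). Higd1a, a mitochondrial protein induced by hypoxia, fell by 1.72 (SE 0.42), and the demethylase Kdm4b fell by 0.39 (SE 0.11). Genes beyond the 3 with the smallest p in each list were chosen after their values were seen.

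Of 13 vessel, red cell and iron targets in heart 5 rose and 1 fell, beside 15.4% and 18.6% of all genes, with a median of 0.32. The vessel receptors Kdr (0.70, SE 0.17) and Tek (0.55, SE 0.13), the copper oxidase Cp (0.67, SE 0.13), the vessel factor Angpt2 (0.51, SE 0.18) and the vasoconstrictor Edn1 (1.37, SE 0.37) rose, and Nos3, the endothelial nitric oxide synthase, fell by 0.43 (SE 0.15). Under the replicate block neither Nos3 (adjusted p = 0.0796) nor Gpi (adjusted p = 0.0513) was called. Vegfa, the main angiogenic factor, had 263 CPM in Sham and 302 in AVF+NX hearts, a log2 difference of 0.20 that was not called (SE 0.11, adjusted p = 0.169). Kdr and Tek are also endothelial markers, whose summed level was 601 to 683 CPM in Sham and 788 to 948 in AVF+NX hearts. Summed fibroblast markers, a cell type that makes P4ha1, Plod2 and Lox, were 995 to 1171 CPM in Sham and 1470 to 1982 in AVF+NX hearts. Their part in these values was not tested. In AVF+NX against NX hearts P4ha1 alone was called among the lists, at 0.80 (SE 0.15, adjusted p = 0.0443), beside 0.336% of all genes, and between NX and Sham hearts none was. The P4ha1 call was lost in 5 of 8 fits that left out 1 library, with only the groups compared (adjusted p = 0.131), with the index (adjusted p = 0.0583) and with total count (log2 0.498, adjusted p = 0.321).

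In the kidney, list counts for AVF+NX against Sham stand beside 25.1% of all genes called. After AVF+NX, 2 of 18 glycolytic targets rose and 0 fell: Hk2, which traps glucose in the cell, by 1.10 (SE 0.15) and Slc16a3, a lactate exporter, by 1.26 (SE 0.18). That count lay below the share of all genes. Of 13 vessel, red cell and iron targets 3 rose and 2 fell. Hmox1, which degrades heme, rose by 2.28 (SE 0.27), Angptl4, a lipase inhibitor, by 4.10 (SE 0.73) and Cp by 1.5 (SE 0.34), while the VEGF receptors Kdr (-0.40, SE 0.09) and Flt1 (-0.37, SE 0.10) fell. Vegfa had 229 CPM in Sham and 189 in AVF+NX kidneys and was not called (log2 -0.28, SE 0.11, adjusted p = 0.0701). It was called with the replicate block (adjusted p = 0.0327), by DESeq2 (adjusted p = 0.0412) and with total count as covariate (adjusted p = 0.02). Of 19 targets of survival, matrix and feedback 4 rose and 3 fell. The chemokine receptor Cxcr4 (2.77, SE 0.24), Lox (2.36, SE 0.35), Plod2 (1.06, SE 0.30) and P4ha1 (0.52, SE 0.12) rose, and Car12 (-0.56, SE 0.14), Rora (-0.47, SE 0.13) and Bnip3 (-0.41, SE 0.14) fell. Of 13 partners 1 rose, the scaffold Rack1 (0.30, SE 0.10), again below the share of all genes. Leaving out 1 library ended the call of Rack1 in 7 of 8 fits, of Bnip3 in 6, of Plod2 in 5 and of Rora in 3. With the index as covariate Rack1, Bnip3, Rora and Flt1 were not called, Bnip3 was not called with total count, and without the count filter Rack1 and Plod2 were not. The medians of these 4 lists, in the order given, were 0.12, -0.02, 0.32 and 0.0044, against -0.0077 for all genes.

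After NX alone Hmox1 (1.61, SE 0.27, adjusted p = 0.0226) and Cxcr4 (1.31, SE 0.24, adjusted p = 0.0297) were called among the kidney lists, beside 1.31% of all genes, and both rose. Leaving out 1 library ended the call of Cxcr4 in 6 of 8 fits and of Hmox1 in 4, and Cxcr4 was not called with the index as covariate (adjusted p = 0.0633). AVF+NX kidneys had more Hk2 (0.85, SE 0.15), Slc16a3 (0.84, SE 0.18) and Cxcr4 (1.45, SE 0.22) than NX kidneys, beside 6.07% of all genes called. With the index as covariate none of these 3 was called, nor was Slc16a3 with only the groups compared (adjusted p = 0.0563) and in 1 of 8 fits without 1 library. Summed macrophage markers, from cells that express Hmox1 and Cxcr4, were 281 to 350 CPM in Sham, 330 to 1094 in NX and 974 to 2166 in AVF+NX kidneys. Summed fibroblast markers were 477 to 686 CPM in Sham and 1746 to 3846 in AVF+NX kidneys. Their part in these changes was not tested. The erythropoietin gene Epo was not analysed here.

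Genes with the most similar pattern over the libraries of an organ were named by Pearson's r of log2 CPM, as a description: libraries of 1 organ share their surgery groups, and heart libraries share the split of the index. In the 12 kidney libraries Hif3a was most like Tnip3 (r = 0.914), Ift140 (r = 0.909) and Plxna2 (r = 0.89), and Epas1 most like Lamc3 (r = 0.939), Arhgap21 (r = 0.914) and Ptprg (r = 0.911). Ankrd37 there was most like Ahcy (r = 0.91), Kctd9 (r = 0.909) and Nt5c2 (r = 0.905), and Egln3 most like Zfp212 (r = 0.843), Prss53 (r = 0.824) and Dhx29 (r = 0.817). In the 11 heart libraries Egln3 was most like the integrin gene Itgb1 (r = 0.989), Calu (r = 0.987) and Osmr (r = 0.986). Heart Epas1 was most like Amigo2 (r = 0.905), Pdk4 (r = 0.892) and Xdh (r = 0.891), and heart Ankrd37 most like Ugcg (r = 0.895), Cers4 (r = 0.883) and Slc35e3 (r = 0.881). The r for the first gene named was also taken without the 2 libraries farthest from the median. In kidney it was then 0.841 for Hif3a, 0.913 for Epas1, 0.843 for Ankrd37 and 0.736 for Egln3. In heart it was 0.985 for Egln3, 0.812 for Epas1 and 0.819 for Ankrd37.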

How the data were processed

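RNA-seq of rat heart (11 libraries) and kidney (12 libraries) was analysed from the deposited files. The authors deposited whole-number read counts per gene with gene length and position, per the file headers. Per the submitters' processing notes, the tools included Subread 1.5.2, featureCounts, STAR 2.5.2b and Trimmomatic 0.36. Sources used here do not give the genome build or the strand setting. The authors also deposited a table per comparison with log2 fold changes, p-values and a normalised signal per library; the signal was not used, and no source used here names the tool behind those p-values. Symbols came from these tables, which name 15123 of 32552 identifiers.

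The 3 groups of an organ entered 1 model in edgeR 4.0.16 (with limma 3.58.1 under R 4.3.3): filterByExpr, TMM scaling, robust quasi-likelihood F test and Benjamini-Hochberg adjustment over all genes tested (12794 in heart, 14322 in kidney). Each SE was derived from the fold change and its F value. A fit of all 23 libraries in 6 groups (15222 genes) gave the organ contrasts. The scripts were tested on simulated data. The 9 members are always named, and from each target list the 3 called genes with the smallest p, with Vegfa and Arnt. Members and lists were chosen with earlier results of these data known. Alternatives were RLE size factors, no count filter, DESeq2 1.42.0, only the groups compared, a replicate block, 2 covariates and leaving out each library.

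The labels call replicates biological and tie no heart to a kidney of the same rat. Where separate animals are not stated, p-values measure the spread between these libraries. No 2 replicates agreed within counting error, so none was counted as a repeat. The 3 comparisons of an organ share libraries, so their values stand side by side.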

Additional observations from a re-analysis of the deposited data

Results flagged for a closer look

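In 2 of 45 gene-by-group sets of 4 libraries, 1 library lay farther from the rest than Dixon's test allows; chance gives about 1 in 20 such sets. Hif3a reached 5.484 CPM in Kidney Sham library 4, the highest of its group, where the other 3 had 2.36 to 2.67. Egln1 had 34.09 CPM in Kidney NX library 2, the lowest of its group, where the other 3 had 38.0 to 38.7.

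Heart and kidney differed in their response to AVF+NX against Sham, by a test of the difference of log2 fold changes in edgeR, for 3 genes. The heart effect minus the kidney effect was 0.57 for Epas1, 0.56 for Egln1 and -0.96 for Egln2. None of the 3 was called with the small RNA index as covariate, and Epas1 and Egln1 were not with log2 total count. The Egln1 call was also lost in 2 of 15 fits that left out 1 library. In heart, Egln2 was lower in 4 of 4 AVF+NX libraries than in every Sham library.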

How the results depend on the processing

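Member calls kept within 1.5 times the main count with RLE size factors, no count filter, only the groups compared and the replicate block. All 9 organ differences between Sham libraries held with RLE size factors, no count filter, DESeq2, the replicate block and each Sham library left out. That contrast was not run with either covariate or with only the groups compared. DESeq2 called 2 members between AVF+NX and NX hearts. With the small RNA index as covariate the number of members called was 0 between AVF+NX and Sham hearts, 0 for the organ difference of that effect, 1 between AVF+NX and Sham kidneys and 0 between NX and Sham kidneys. With log2 total count as covariate it was 0 between AVF+NX and Sham hearts and 1 for the organ difference. The covariates move with the groups, and the cause was not tested.

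Leaving out 1 library at a time gave 0 to 2 members between AVF+NX and NX hearts (2 without NX library 2, 1 without NX library 3), 0 to 1 between NX and Sham hearts (Egln2 at -0.614 without NX library 1), 3 to 4 between AVF+NX and Sham hearts, 1 to 2 between AVF+NX and Sham kidneys and 0 to 1 between NX and Sham kidneys. For the organ differences it gave 2 to 4 (AVF+NX against Sham), 0 to 1 (NX against Sham, without Heart NX library 1) and 0 to 1 (AVF+NX against NX, without Heart NX library 2 or 3). Fits that left out NX hearts 1 and 4 or 2 and 3 together, pairs read from their index after the data were seen, were also run; they are not reported, since the index splits these libraries as the members do.

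Genes that were not called changed sign as follows, as log2 values. With the index as covariate, AVF+NX against NX in heart gave Hif1a -0.051 and Vhl 0.026, and AVF+NX against Sham in heart gave Egln1 -0.011 (called before), Hif1a -0.173, Vhl 0.107 and Gapdh 0.066 (called before). NX against Sham in heart gave Egln1 -0.08, Epas1 -0.016, Hif1a -0.121 and Vhl 0.081. AVF+NX against NX in kidney gave Egln2 -0.061, Epas1 0.007 and Hif3a -0.041. The organ differences gave Hif1an 0.043 (AVF+NX against NX), Hif1a -0.356 (AVF+NX against Sham), and Egln1 -0.115, Egln3 -0.154 and Hif1a -0.107 (NX against Sham). With total count as covariate the values were Hif1a -0.055, -0.069 and -0.014 in heart (AVF+NX against NX, AVF+NX against Sham, NX against Sham), Egln3 0.01 in kidney (AVF+NX against NX), and for the organ differences Hif1an 0.01 and Hif3a 0.327 (AVF+NX against NX), Hif1a -0.255 (AVF+NX against Sham) and Egln3 -0.013 (NX against Sham). Without the count filter Arnt was 0.002 between AVF+NX and Sham hearts.

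Leaving out 1 library, signs also changed within these ranges: AVF+NX against NX in heart, Ankrd37 -0.059 to 0.402, Hif1a -0.045 to 0.103 and Vhl -0.103 to 0.02; AVF+NX against Sham in heart, Arnt -0.067 to 0.019; NX against Sham in heart, Hif1a -0.034 to 0.113 and Vhl -0.104 to 0.027. In kidney, AVF+NX against NX gave Ankrd37 -0.24 to 0.004, Egln2 -0.018 to 0.04, Egln3 -0.265 to 0.055 and Epas1 -0.103 to 0.028, and NX against Sham gave Hif1a -0.058 to 0.081 and Hif1an -0.01 to 0.101. The organ differences gave Hif1a -0.167 to 0.014 and Hif3a -0.396 to 0.213 (AVF+NX against NX), Hif1a -0.075 to 0.046 (AVF+NX against Sham), and Egln3 -0.049 to 0.27 and Hif1a -0.014 to 0.166 (NX against Sham).

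Replicate numbers were not taken as pairs, since not every pair's correlation of deviations was above 0.1: over 33 pairs it ran from -0.12 to 0.38, with 10 above 0.1. In kidney, numbers 1 and 3 were above 0.1 in all 3 group pairs (0.24, 0.14 and 0.26; 0.38, 0.21 and 0.23), a hint of shared deviation there, and number 2 in none. The replicate block changed no member call (4 between AVF+NX and Sham hearts, 2 and 1 against Sham in AVF+NX and NX kidneys, 3 and 9 for the organ contrasts); over all genes, calls went from 187 to 669 between NX and Sham kidneys and from 0 to 61 in hearts. Under it Hif1a was -0.008 for the organ difference of AVF+NX against Sham. Depth limits Hif3a and heart Ankrd37, which rest on few counts.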
